A study of Mus musculus with 2 samples.

Results

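The cells described here are secretory cells of the mouse airway that carried RNA of the gel-forming mucin Muc5b or of the antimicrobial protein Bpifb1. They were picked from 2 single-cell RNA sequencing libraries of lung cells sorted for epithelium by the unique molecular identifiers (UMIs, 1 per captured transcript) of a few genes. A barcode was kept if it had over 200 and under 5000 genes with a UMI and under 20% mitochondrial UMIs. A kept cell was a member if at least 3 of Muc5b, Bpifb1, Scgb3a1, Pigr, Ltf and Gabrp were detected, if Muc5b or Bpifb1 had 2 or more UMIs, if Sftpc made up under 5% of its UMIs, and if it had no UMI of the leukocyte gene Ptprc, the endothelial gene Pecam1 or the ciliated cell gene Foxj1. This rule found 172 of 45824 kept cells, 19 in the WT library and 153 in the KO library.

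The study asked how the loss of Pclaf, a factor that binds the replication clamp PCNA in dividing cells, alters the lung epithelium after injury. Mice of 8 to 10 weeks, either Pclaf WT or with a germline Pclaf KO, received bleomycin (1.35 U/kg) in the airway and were sampled 1 week later. Bleomycin damages DNA and injures the alveoli, and both genotypes received it, so no uninjured lung was compared. Cd31-/Cd45-/Epcam+ cells were sorted and loaded on a droplet system that reads the 3′ ends of transcripts, with 1 library per genotype, and the number of mice behind each library is not given in the sources used here.

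Airway secretory cells line the conducting airways and release the fluid that covers them. Club cells secrete secretoglobins and detoxify inhaled compounds, while goblet cells and related mucous cells make the mucins that bind inhaled particles. Muc5b is the main mucin of the resting mouse airway, Bpifb1 and its neighbor Bpifa1 are secreted proteins of the bactericidal/permeability-increasing family, and Pigr carries immunoglobulin A into the lumen.

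The label of goblet-like cells was checked against its markers, and the data held to it only in part. The most abundant RNA of the members was Scgb1a1, the club cell secretoglobin, with 380995 CPM (UMIs per 1000000 UMIs) in WT against 373480 CPM in KO. The goblet transcription factors were near the detection limit, with 12.1 CPM (3 UMIs) of Spdef in WT against 13.4 CPM (35 UMIs) in KO, and 4.04 CPM (1 UMI) of Foxa3 in WT against 11.5 CPM (30 UMIs) in KO. Muc5ac, the mucin induced in goblet cell metaplasia, had 32.3 CPM (WT) and 34.1 CPM (KO), far below Muc5b. The members are therefore called Muc5b/Bpifb1 secretory cells below, after the genes that picked them. All levels are given as CPM of the UMIs summed over the cells of a library, and since each UMI marks a 3′ end they were not divided by transcript length.

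The sequences just before the start sites of 4 genes are shown. Their RNA was higher in members with 2 or more UMIs of both Muc5b and Bpifb1 than in those with Muc5b alone. Scgb3a1 and Bpifb1 also chose the members, so this is a description only. The sequences come from RefSeq (GRCm38.p6), which had an entry for 5 of the 6 genes of the rule. Each run holds the 250 bases before the annotated start, 5′ to 3′ on the strand of the gene, and capitals mark the motifs searched on both strands. The TATA box was searched as TATAAA. Sites of forkhead factors of the FOXA kind were searched as TGTTTAC or, in a second form, as TGTTTGC. Sites of NKX2-1 were searched as CTCAAG, and those of ETS factors were searched as CAGGAAG. No match overlapped another in these windows.
Scgb3a1, chr11:49663345-49663594, + strand: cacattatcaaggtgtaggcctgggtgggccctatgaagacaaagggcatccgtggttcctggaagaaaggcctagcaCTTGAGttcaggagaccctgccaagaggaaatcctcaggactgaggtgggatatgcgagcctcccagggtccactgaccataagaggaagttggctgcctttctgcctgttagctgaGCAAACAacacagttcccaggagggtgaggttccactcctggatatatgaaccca
Bpifb1, the first of its 2 starts, chr2:154190568-154190817, + strand: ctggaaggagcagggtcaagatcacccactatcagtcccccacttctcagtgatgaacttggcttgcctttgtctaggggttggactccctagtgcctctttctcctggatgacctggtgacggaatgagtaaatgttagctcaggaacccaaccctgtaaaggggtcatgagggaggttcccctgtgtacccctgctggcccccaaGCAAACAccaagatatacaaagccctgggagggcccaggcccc
Bpifa1, chr2:154142630-154142879, + strand: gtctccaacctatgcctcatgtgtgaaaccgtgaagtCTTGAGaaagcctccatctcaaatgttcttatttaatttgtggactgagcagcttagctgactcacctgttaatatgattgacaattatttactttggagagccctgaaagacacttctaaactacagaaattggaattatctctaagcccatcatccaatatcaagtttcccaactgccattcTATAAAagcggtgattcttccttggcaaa
Reg3g, chr6:78468875-78469124, - strand: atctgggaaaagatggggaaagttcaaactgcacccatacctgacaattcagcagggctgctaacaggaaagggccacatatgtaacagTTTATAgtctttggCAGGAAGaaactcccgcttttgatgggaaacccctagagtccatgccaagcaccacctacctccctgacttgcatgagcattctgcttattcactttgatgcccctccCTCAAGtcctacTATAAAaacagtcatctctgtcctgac

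The reverse complement of TGTTTGC began 55 bases before the start of Scgb3a1 and 43 bases before that of Bpifb1, and this motif was present in 4.30% of the 32851 windows of the same length. TATAAA began 29 bases before the start of Bpifa1 and 27 bases before that of Reg3g, and was present in 12.4% of all windows. CTCAAG or its complement lay in the windows of Scgb3a1, Bpifa1 and Reg3g, against 13.3% of all windows. TGTTTAC (3.17% of all windows) was in none of the 4, and CAGGAAG (10.8%) was in that of Reg3g. The window of the other Bpifb1 start, not printed, held CAGGAAG at 171 and 143 bases before the start and no match of the other motifs. These matches describe letters and say nothing of binding. Bpifa1 (chr2:154142880-154149219, GRCm38, + strand) and Bpifb1 (chr2:154190818-154220369, + strand) are protein-coding neighbors with 41.6 kb between the end of the first and the start of the second. Muc5b, also protein-coding, lies on another chromosome (chr7:141839070-141873084, + strand).

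Several features of the libraries bear on every comparison. There were 98171818 UMIs on 30669 WT barcodes and 111267567 UMIs on 17172 KO barcodes. Kept cells had a median of 2127 UMIs and 1162 genes in WT and 5957 UMIs and 2132 genes in KO. The members were deeper than this, with a median of 9083 UMIs (1383 to 31792) and 2656 genes in WT and of 16856 UMIs (1368 to 43453) and 3021 genes in KO. There were 163 barcodes present in both libraries, among them that of 1 KO member. The study's methods describe male mice, yet both libraries held cells with Xist, which is made from the inactive X chromosome, and cells with transcripts of the Y chromosome. Of the WT members, 4 had Xist but no Y-linked UMI, 10 had Y-linked UMIs only, 2 had both and 3 neither. Of the KO members, 113 had Xist only, 21 had Y-linked UMIs only, 4 had both and 15 neither. Sex and genotype can therefore not be told apart in a sum over all members, and the ratios below were also computed on the 13 WT and 36 KO members without Xist. Scrublet called 0 WT and 2 KO members doublets.

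The rule set the edges of the group in measured values. In WT, 58 kept cells had 3 or more of the 6 genes, 32 of these also had 2 or more UMIs of Muc5b or Bpifb1, none was lost to the Sftpc limit, and 6, 5 and 2 were then lost to Ptprc, Pecam1 and Foxj1. In KO the same steps left 365, 192, 180, 178, 173 and 153 cells. All 6 genes were present in 9 WT and 81 KO members. Just inside the rule, 19 KO members whose higher count of Muc5b and Bpifb1 was exactly 2 UMIs had 80.0 CPM of Muc5b and 1374 CPM of Scgb3a1. Just outside it, 44 KO cells with 1 UMI at most had 35.2 CPM of Muc5b and 254 CPM of Scgb3a1, and their Scgb1a1 level (460068 CPM) was close to that of the cells just inside (455513 CPM). In WT the 2 cells just inside had 175 CPM of Muc5b and 175 CPM of Scgb3a1, and the 6 just outside 84.8 CPM and 4140 CPM.

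The members were a like share of the airway cells in both libraries and an unlike share of all cells. They made up 0.0629% of kept WT cells (95% interval 0.0379 to 0.0983) and 0.978% of kept KO cells (0.830 to 1.15). The libraries differed in make-up, since gates for AT2 (alveolar type 2) and airway cells held 592 and 322 of the 30187 kept WT cells, against 6816 and 2821 of the 15637 kept KO cells, and the other kept cells were not assigned to a type here. The part of this in the share of all cells and in the free RNA was not tested. Of the airway cells, counted as the members plus cells in gates for club, ciliated and basal cells, they made up 5.90% in WT (19 of 322, 3.59 to 9.06) and 5.42% in KO (153 of 2821, 4.62 to 6.32). The other airway cells shifted with them: the club gate held 185 WT and 1657 KO cells and the ciliated gate 118 WT and 1010 KO cells. The basal gate held 0 WT cells and 1 KO cell and was not compared. The club gate, the largest part of the airway cells, also caught RNA of other cells, as given below. Membership also depends on depth, which was higher in KO, and the part of either in these shares was not tested. Epcam, the protein of the sort, was detected as RNA in 68.4% of WT and 78.4% of KO members. These intervals are exact binomial ones and cover counting error only, and with 1 library per genotype no test between genotypes can be made of any value here.

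The genes of the rule varied widely from cell to cell. Muc5b ranged from 0 to 4556 CPM in the WT members with a median of 661 CPM, and from 0 to 15296 CPM in the KO members with a median of 515 CPM. Bpifb1 ranged from 0 to 12802 CPM in WT, median 292 CPM, and from 0 to 23443 CPM in KO, median 798 CPM. Scgb3a1, a small secretoglobin of the upper airway, ranged from 0 to 75171 CPM in WT, median 9400 CPM, and from 0 to 91193 CPM in KO, median 5650 CPM. The ranges of the libraries overlapped throughout, and each of these genes was undetected in some members of both libraries. Scgb3a1 reached 7.52% of a cell's UMIs in WT and 9.12% in KO, Bpifb1 1.28% and 2.34%, and Muc5b 0.456% and 1.53%. Pigr was more even, with medians of 324 CPM (WT) and 385 CPM (KO), and so was Gabrp, a chloride channel subunit, with 447 CPM (WT) and 297 CPM (KO). Ltf, the iron-binding lactoferrin, had medians of 463 CPM (WT) and 338 CPM (KO), but 1 WT cell gave 40.5% of the WT UMIs. Scgb1a1 was present in every member, from 1.61% to 56.4% of a cell's UMIs in WT and from 0.0817% to 65.8% in KO.

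**Figure D1:**
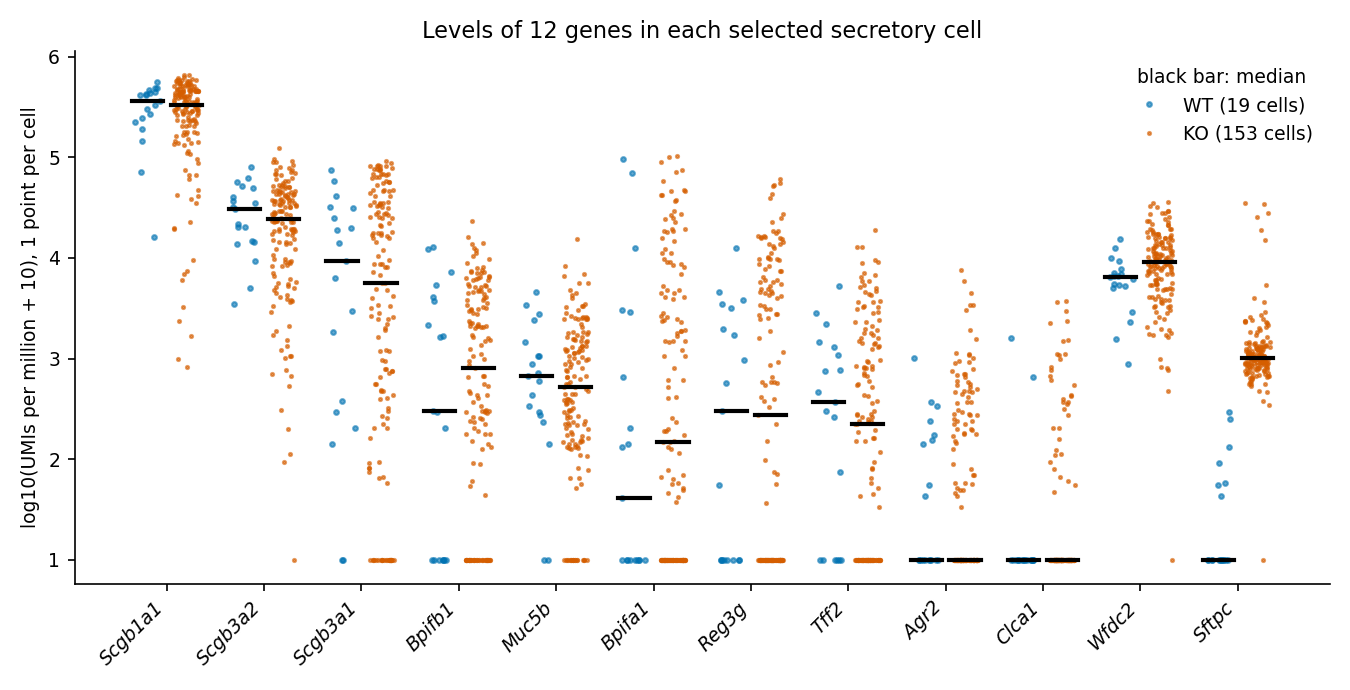
Level of 12 genes in each member, as log10 of CPM plus 10, with 1 point per cell, blue for the 19 WT and orange for the 153 KO cells, and black bars at the medians. Most cells carry Scgb1a1, Scgb3a2 and Wfdc2, with a few low KO cells, whereas many cells lack Bpifa1 and Reg3g and others lie above 4 on this axis, and Sftpc lies near its median of 996 CPM in nearly all KO cells but at 0 in most WT cells.

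The members were divided by which of the 2 leading genes had brought them in, a division that follows from the rule itself. Muc5b alone had 2 or more UMIs in 8 WT and 41 KO members, Bpifb1 alone in 2 WT and 26 KO members, and both in 9 WT (47.4%, 24.4 to 71.1) and 86 KO members (56.2%, 48.0 to 64.2). The groups differ in Muc5b and Bpifb1 by construction, Scgb3a1, Pigr, Ltf and Gabrp also served to choose the members, and the other genes come from the same cells, so all values by group are a description.

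Several antimicrobial and mucus-related RNAs were higher in the cells with both genes than in those with Muc5b alone, and Bpifa1 and Clca1 were at or near 0 in the latter. Bpifa1, an antibacterial and surfactant-like protein of the airway lining, had 18563 CPM in the WT and 8842 CPM in the KO cells with both, against 8.10 CPM (1 UMI) and 12.1 CPM (10 UMIs) in the cells with Muc5b alone. Reg3g, a lectin that kills Gram-positive bacteria, had 2536 CPM (WT) and 8048 CPM (KO) with both, against 162 CPM and 72.6 CPM with Muc5b alone. Scgb3a1 had 29776 CPM (WT) and 34548 CPM (KO) with both, against 4089 CPM and 753 CPM. Scgb3a1 is a gene of the rule, and its median in the cells with Muc5b alone was 284 CPM (WT) and 64.8 CPM (KO). The cells with Muc5b alone were deeper, with a median of 14371 UMIs in WT and 20991 UMIs in KO. The cells with both had medians of 8780 and 16698 UMIs. Since the rule asks for a fixed number of UMIs, a deeper cell can enter at a lower level of Muc5b. The median cell had 308 CPM (WT) and 220 CPM (KO) of Muc5b where it was alone, against 1437 CPM and 1306 CPM with both. The part of depth in the differences between these groups was not tested. Bpifa1 was detected in 1 of 8 WT and 8 of 41 KO cells with Muc5b alone, and in 8 of 9 WT and 70 of 86 KO cells with both. Tff2, a trefoil peptide that is packed with mucins, had 1345 CPM (WT) and 2499 CPM (KO) with both, against 283 CPM and 44.8 CPM with Muc5b alone. Agr2, a disulfide isomerase needed for mucin folding, had 197 CPM (WT) and 496 CPM (KO) with both, against 16.2 CPM and 16.9 CPM. Clca1, a protease secreted with mucus, was not detected in the cells with Muc5b alone of either library (0 of 8 and 0 of 41 cells) and was detected in 1 of 9 WT and 34 of 86 KO cells with both.

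Club cell genes did not follow 1 pattern. Scgb3a2 was higher with both genes, at 42471 CPM (WT) and 40455 CPM (KO) against 28846 CPM and 14300 CPM with Muc5b alone, while Scgb1a1 and Hp were lower. Scgb1a1 was at 438640 CPM (WT) and 455218 CPM (KO) with Muc5b alone, and at 321823 CPM and 345457 CPM with both. Hp, the hemoglobin-binding protein haptoglobin, was at 5756 CPM and 6980 CPM with Muc5b alone, and at 2553 CPM and 3165 CPM with both. Cyp2f2, the cytochrome that defines club cells, differed less, with 4210 CPM and 3801 CPM against 3272 CPM and 4200 CPM. Muc5b itself was lower where it was alone, at 510 CPM (WT) and 289 CPM (KO) against 1568 CPM and 1757 CPM with both.

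The cells with Bpifb1 alone were few in WT, and the 26 in KO did not lie between the other groups in every gene. Their sums of Bpifa1 (12250 CPM) and Reg3g (6147 CPM) were near those of the KO cells with both, but these sums rest on few cells. The median cell had 51.9 CPM of Bpifa1 against 1888 CPM with both, with 14 of 26 and 70 of 86 cells positive and a highest cell of 102301 CPM. The median of Reg3g was 178 CPM against 3724 CPM. Scgb3a1 (6884 CPM) and Tff2 (297 CPM) were lower in the sums too. Clca1 had 3 UMIs in them (9.48 CPM). Krt15, a keratin of basal and some secretory cells, was at 629 CPM in them against 132 CPM with both and 14.5 CPM with Muc5b alone. Lcn2, a siderophore-binding protein, was at 1691 CPM against 425 CPM and 445 CPM. Both are sums, and how far they rest on single cells was not tested. In the 2 WT cells with Bpifb1 alone neither gene had a UMI in 7563 UMIs, which is too shallow to set beside the KO values.

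**Figure D2:**
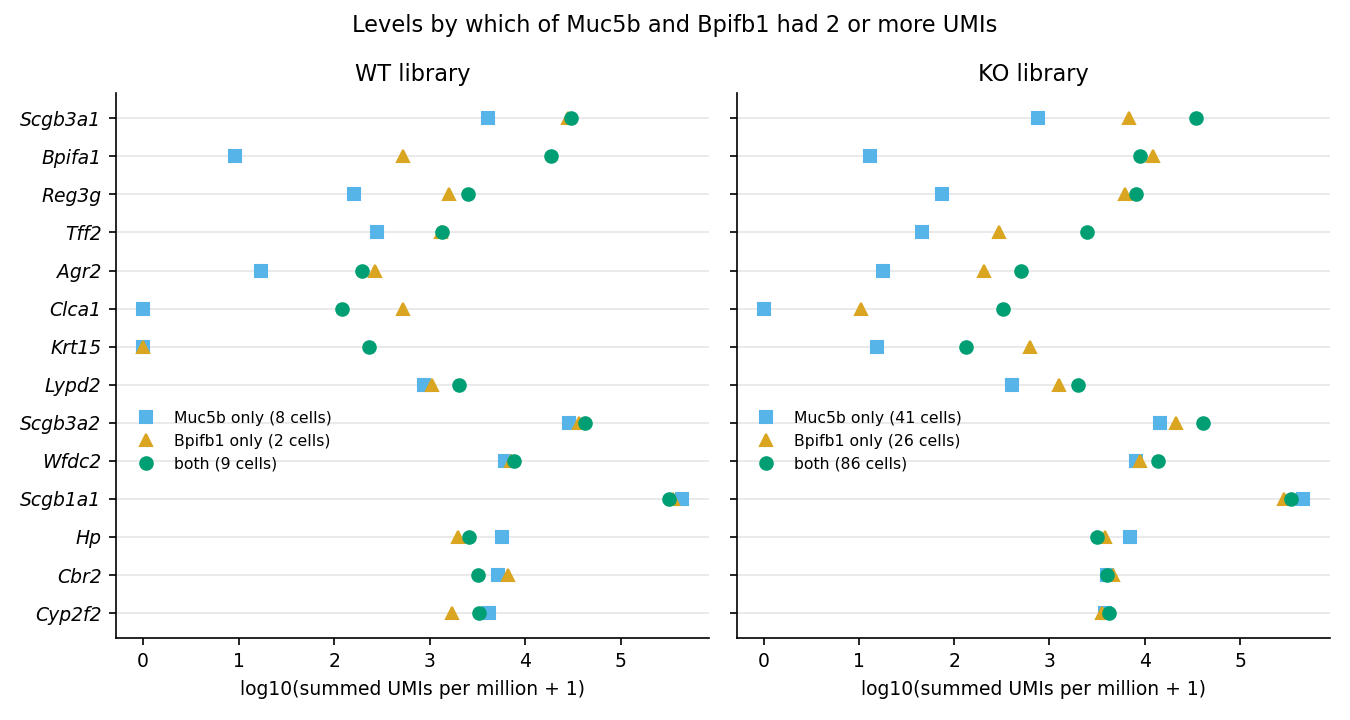
Summed level of 14 genes, as log10 of CPM plus 1, in the members with Muc5b alone (squares), Bpifb1 alone (triangles) or both (circles) at 2 or more UMIs, WT on the left and KO on the right. In both libraries the squares of Bpifa1, Reg3g, Tff2, Agr2 and Scgb3a1 lie left of the circles, while the markers of Cyp2f2, Cbr2 and Scgb1a1 lie close together, and Krt15 is highest in the triangles of KO only.

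Correlations across the members were taken as a description, since the rule chose the cells on Muc5b, Bpifb1 and Scgb3a1 and this choice shapes every correlation that involves them. After each cell was thinned to 2000 UMIs, which left 18 WT and 150 KO members, the Spearman correlation of Reg3g with Bpifa1 was 0.87 in WT and 0.74 in KO. That of Scgb3a1 with Reg3g was 0.84 and 0.63, and that of Bpifb1 with Bpifa1 was 0.88 and 0.66. Scgb1a1 had negative values, with -0.63 and -0.37 to Reg3g and -0.51 and -0.27 to Bpifb1. Tff2 with Agr2 gave 0.27 in both. The cells of a library share a depth, a droplet run and free RNA, and a gene that takes up much of a cell's UMIs lowers the others, so these values are descriptions over cells and not over mice. The output was concentrated in few cells. Of the KO UMIs of Bpifa1, 70.4% came from the 15 members with the most, as did 63.8% of those of Reg3g and 48.8% of those of Scgb3a1, against 29.0% for Wfdc2. In WT a single cell gave 52.4% of the Bpifa1 UMIs.

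Set beside the other airway cells, the members had higher levels of secreted defense and mucus genes. The club gate took cells with at least 3 of Scgb1a1, Scgb3a2, Cyp2f2, Cbr2, Cldn10 and Hp, of which Scgb1a1 or Cyp2f2 had 2 or more UMIs. This gate also caught RNA of other cells, since 12 mesenchymal genes summed to 4343 CPM in its WT and 13629 CPM in its KO cells, with Mgp as the most abundant. A narrower club set was therefore added after this had been seen. Its 95 WT and 655 KO cells had Scgb1a1 at 10% or more of their UMIs, and in it the mesenchymal genes summed to 959 CPM (WT) and 788 CPM (KO). Genes outside the rule with a mean of at least 50 CPM in the members were ranked by the smaller of the 2 libraries' ratios of members over the club gate.

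Reg3g, Tff2, Agr2 and Clca1 led this ranking, followed by Calml3, Gp2, Gm37245, Bpifa1, Chad and Lypd2. Reg3g was at 1324 CPM in the WT and 5290 CPM in the KO members, against 15.5 CPM and 23.0 CPM in the narrower club set, a log2 ratio of 6.41 (5.52 to 7.49) in WT and 7.85 (7.60 to 8.10) in KO. Tff2 was at 815 CPM and 1454 CPM against 20.2 CPM and 14.1 CPM, a log2 ratio of 5.34 (4.53 to 6.27) and 6.69 (6.38 to 7.03). Bpifa1 was at 8765 CPM and 6458 CPM against 9.31 CPM and 15.1 CPM, a log2 ratio of 9.88 (8.75 to 11.33) and 8.74 (8.44 to 9.06). Its size depends on the club cells chosen, since the club gate as a whole had 1069 CPM (WT) and 258 CPM (KO), which gives log2 ratios of 3.03 (2.93 to 3.14) and 4.65 (4.59 to 4.70). For Reg3g the whole gate gave 6.45 and 6.92, and for Tff2 5.85 and 7.69. These genes were ranked by their ratios over the club gate, and the members were chosen on genes that vary with them. The ratios are therefore a description, and their intervals cover counting error only. Agr2 had a single UMI in the narrower WT club set and 38 in the KO one, and its log2 ratios were 6.13 (3.53 to 11.49) and 5.57 (5.10 to 6.08). Gp2, a glycoprotein that binds bacterial fimbriae, was at 32.3 CPM and 78.6 CPM in the members with 1 UMI in each of the narrower sets. Lypd2, a small protein anchored to the membrane, was at 1408 CPM and 1396 CPM in the members, with log2 ratios of 2.50 (2.23 to 2.78) and 2.71 (2.62 to 2.81).

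The genes that chose the club gate give no comparison with it, and their values are a description. Cbr2, a carbonyl reductase, had log2 ratios of -0.10 (-0.20 to 0.01) in WT and -0.17 (-0.20 to -0.14) in KO over the narrower set. Cyp2f2 had -0.03 (-0.14 to 0.08) and 0.36 (0.33 to 0.40). For Scgb1a1, which also chose the narrower set, the members' 380995 CPM and 373480 CPM were below the 450591 CPM and 473356 CPM of that set and above the 298832 CPM and 228458 CPM of the whole club gate. Scgb3a2, a secretoglobin of the smaller airways, had 1.17 (1.13 to 1.21) and 1.44 (1.42 to 1.45). Against the ciliated gate the genes with high ratios in both libraries included Chad, Ccdc129 and Scgb3a2. Scgb3a2 had 1004 CPM in the WT and 872 CPM in the KO ciliated cells against 35490 CPM and 29831 CPM in the members.

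Free RNA in the droplets limits how these shares are read. With every cell thinned to 2000 UMIs, Bpifa1 was detected in 33.3% of WT (6 of 18, 13.3 to 59.0) and 46.0% of KO members (69 of 150, 37.8 to 54.3). In cells with 5% or more Sftpc, alveolar type 2 (AT2) cells that should lack the gene, it was detected in 0 of 502 WT cells, up to 0.732%, and in 0.859% of KO cells. After the same thinning 9 of 18 WT members (interval 26.0% to 74.0%) held Reg3g, as did 73 of 150 KO members (40.4% to 57.0%), against 0 of 502 AT2 cells in WT and 0.475% in KO. Both shares were higher in the members than in AT2 cells, and the part of free RNA in them was not tested. Scgb1a1 did not separate cells in this way, since it was detected in 32.9% of thinned WT and 88.1% of thinned KO AT2 cells. The median depth before thinning was 4759 UMIs in WT and 7106 UMIs in KO AT2 cells.

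**Figure D3:**
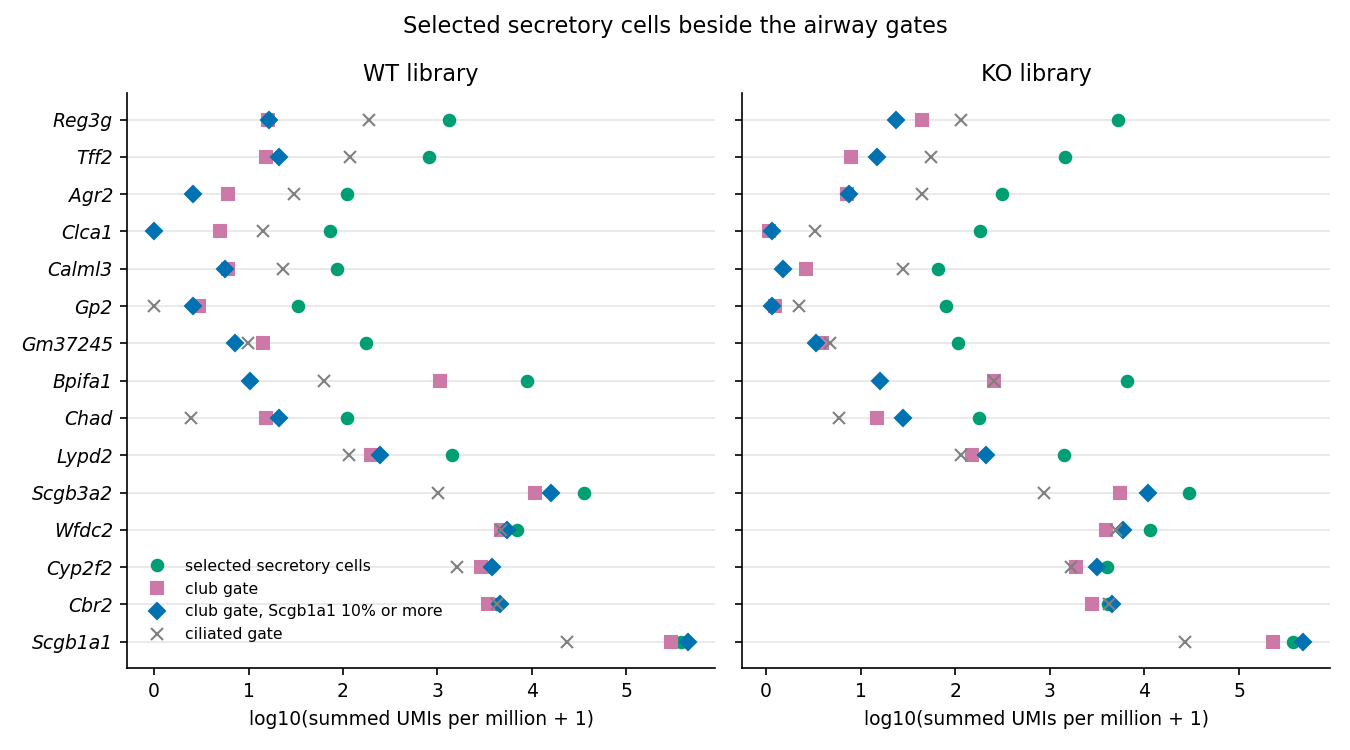
Summed level of 15 genes, as log10 of CPM plus 1, in the members (green circles), the club gate (pink squares), club gate cells with Scgb1a1 at 10% or more (blue diamonds) and the ciliated gate (grey crosses), WT on the left and KO on the right. From Reg3g down to Lypd2 the circles lie right of all other markers in both libraries, whereas for Cyp2f2 and Cbr2 the circles and diamonds lie close together. Scgb1a1 chose the diamonds.

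The wider lists give the extent of the mucous program. Of 15 genes of the goblet and secretory program, Tff2, Qsox1, Agr2, Clca1 and Creb3l1 held enough UMIs for a ratio between the libraries, and 4 were at 0 in WT. Their sum was 1582 CPM in the WT and 2489 CPM in the KO members, against 172 CPM and 150 CPM in the club gate. Fcgbp, a mucin-binding protein, was at 20.2 CPM and 18.4 CPM, and Gcnt3, Scin and Tff1 had at most 2 UMIs in each library. Of 11 mucins, Muc5b was the most abundant, followed by the membrane mucins Muc1 (258 CPM in WT, 330 CPM in KO), Muc4 (129 CPM and 117 CPM) and Muc20 (60.5 CPM and 56.8 CPM), and 4 had no UMI in KO. The mucins summed to 1501 CPM and 1633 CPM in the members and to 339 CPM and 260 CPM in the club gate. Muc5b, the largest part of the members' sums, also chose the members, so this difference is a description only. Muc1 was at 266 CPM (WT) and 174 CPM (KO) in the club gate. Basal cell genes were low, 169 CPM (WT) and 283 CPM (KO) for 12 genes, led by Krt15. Neuroendocrine, tuft and ionocyte genes summed to 117 CPM and 102 CPM, led by Atp6v1c2, with Chga at 0 in WT and 1 UMI in KO.

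The comparison of the genotypes rests on 247817 UMIs of the WT and 2607774 UMIs of the KO members. A gene was measured if its pooled level would give 10 or more UMIs in each library, which held for 2184 genes. Of these, 1112 were higher and 1072 lower in KO. Their median log2 ratio, KO over WT, was 0.011, with quartiles of -0.31 and 0.32. Among the 2184 genes, 91 (4.17%) were 2-fold or more higher in KO and 27 (1.24%) 2-fold or more lower, where 2-fold is a size and not a test. This balance turned to 36 and 75 with the rule on thinned cells, and to 45 and 75 in the members without Xist. The intervals given with the ratios are exact ones for Poisson counts and cover counting error only.

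The genes of the rule were close between the libraries. Log2 ratios were 0.12 (-0.06 to 0.32) for Muc5b, from 993 CPM in WT to 1082 CPM in KO, and 0.14 (0.01 to 0.27) for Bpifb1, from 2094 CPM to 2306 CPM. Scgb3a1 had 0.28 (0.23 to 0.32), from 16920 CPM to 20483 CPM. Pigr had 0.08 (-0.20 to 0.38), Ltf 0.40 (0.19 to 0.62) and Gabrp -0.42 (-0.69 to -0.13). None of the 6 was past 2-fold, but these genes chose the cells, and the ratios are a description only. The secretoglobins were close as well, with Scgb1a1 at -0.03 (-0.04 to -0.02) and Scgb3a2 at -0.25 (-0.28 to -0.22). The 4 measured secretoglobins had a median of -0.14.

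The antimicrobial secretions differed in several abundant genes. Reg3g was at 1324 CPM in WT (328 UMIs in 11 of 19 cells) and 5290 CPM in KO (13795 UMIs in 84 of 153 cells), a log2 ratio of 2.00 (1.84 to 2.16). The median cell was at 292 CPM (WT) and 264 CPM (KO), and the highest cell at 12415 CPM and 60557 CPM. The share of members with Reg3g was thus alike and the KO sum came from higher values in the upper part, with the upper quartile at 2570 CPM (WT) and 5969 CPM (KO). A single WT cell gave 33.2% of the WT UMIs. Within the cells with both Muc5b and Bpifb1 the log2 ratio was 1.67, and within the members without Xist 1.51. With the rule applied to thinned cells it was 0.28, the lowest of the alternatives.

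Of the 30 antimicrobial genes, 12 were measured, 8 were higher and 4 lower in KO, 4 were 2-fold or more higher and none 2-fold lower, with a median of 0.43. That median was far smaller with both Muc5b and Bpifb1 required, as given at the end of the report. The share of all measured genes that were 2-fold higher was 4.17%, and no test of the list was made. Lcn2 was at 234 CPM (WT) and 585 CPM (KO), a log2 ratio of 1.32 (0.94 to 1.73), and its ratio was 0.18 in the members without Xist. Its medians per cell were 141 CPM and 169 CPM, the highest KO cell was at 11984 CPM, and 535 of the 1525 KO UMIs were in the 26 cells with Bpifb1 alone. Pglyrp1, a protein that binds bacterial peptidoglycan, was at 141 CPM and 355 CPM, a log2 ratio of 1.33 (0.85 to 1.86), which was 1.09 in the members without Xist and 0.46 with the rule on thinned cells. Wfdc2, a small antiprotease, was at 6912 CPM and 11332 CPM, a log2 ratio of 0.71 (0.64 to 0.78), with medians per cell of 6409 CPM and 9058 CPM. Bpifa1 went the other way, from 8765 CPM to 6458 CPM, a log2 ratio of -0.44 (-0.51 to -0.38), but its median per cell was 31.5 CPM (WT) and 139 CPM (KO), and the WT sum rested on few cells. Lyz2, lysozyme of macrophages and AT2 cells, had a log2 ratio of 1.27 (0.99 to 1.57), which was 0.11 in the cells with both Muc5b and Bpifb1. In the cells with Muc5b alone it was at 72.9 CPM (9 UMIs) in WT against 1513 CPM in KO. Saa3, an acute phase protein, had 0 UMIs in WT and 259 in 41 KO members. With the WT count set to a floor of 3 UMIs its log2 ratio was 3.04, which is not a lower limit. From smaller sums, this value was 1.69 without Xist, 1.45 with both Muc5b and Bpifb1 required and 0.40 for the same members thinned.

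Mucus-related genes were higher in KO in part. The 5 measured genes of the goblet and secretory program had a median of 0.84, with 3 higher and 2 lower. Of these, 2 were 2-fold higher, as were 4.17% of all measured genes. With the rule on thinned cells the median turned negative. Tff2 had a log2 ratio of 0.84 (0.63 to 1.05), which was 0.09 with the rule on thinned cells. Agr2, from 109 CPM to 309 CPM, had one of 1.50 (0.95 to 2.11), and Clca1, from 72.6 CPM to 182 CPM, one of 1.33 (0.65 to 2.09). Qsox1, a sulfhydryl oxidase of the secretory pathway, had -0.16 (-0.44 to 0.15). The WT values rest on 27 UMIs of Agr2 and 18 of Clca1, of which 1 cell gave 44.4% and 77.8%. With both Muc5b and Bpifb1 required, Agr2 was at 1.33 and Clca1 at 1.43, and without Xist Agr2 was at 0.88, but with the rule on thinned cells Clca1 turned to -1.20. The 4 measured mucins had a median of 0.02, with Muc1 at 0.35 (-0.01 to 0.74) and Muc4 at -0.15 (-0.68 to 0.43), and none was past 2-fold.

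The other lists are given by their counts, beside all 2184 measured genes, of which 4.17% were 2-fold higher, 1.24% 2-fold lower, 1112 higher and 1072 lower. A list with none or few past 2-fold is therefore close to the share of all genes. Of 22 genes of the endoplasmic reticulum, 16 were measured, 8 higher and 8 lower, with a median of 0.03. Only Ssr4, a subunit of the translocon, was past 2-fold among them, at 1.22 (0.62 to 1.88), while Hspa5, the main chaperone, was at -0.49 (-0.83 to -0.14). Of 21 transcription factors of secretory cells, 13 were measured, 3 higher and 10 lower, with a median of -0.21 and none past 2-fold. Of 14 Notch pathway genes, 3 were measured, with Notch2 at -0.61, Maml2 at -0.53 and the target Hes1 at 0.04 (-0.38 to 0.49). In the members without Xist these were at 0.10, -1.48 and -0.21. Of 12 measured club cell genes, 6 were higher and 6 lower, with a median of 0.04. Ion and water transport genes had a median of -0.05 over 11 measured genes, none past 2-fold, with Slc12a2, the chloride importer of secreting cells, at -0.22 (-0.55 to 0.11). Genes of xenobiotic and redox metabolism had a median of -0.06 over 18 measured genes and none past 2-fold. Acute phase proteins and chemokines had a median of -0.05 over 8 measured genes, 4 higher and 4 lower, with Saa3 and Nfkbia past 2-fold in opposite directions and Hp at 0.11 (0.02 to 0.20), and genes of immunoglobulin transport and MHC had one of 0.08 over 5. Antiproteases and proteases had a median of 0.64, with all 6 measured genes higher (of all genes 1112 of 2184) and none past 2-fold, among them Wfdc2 and the cathepsin inhibitor Cst3 (0.56, 0.13 to 1.02). Markers of RNA quality, the nuclear Malat1 and mitochondrial transcripts among them, had a median of 0.12 over 11 measured genes, of which Xist was past 2-fold. Of 25 growth factor and TGF-beta genes only Fgfr2 was measured, at -0.03.

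**Figure D4:**
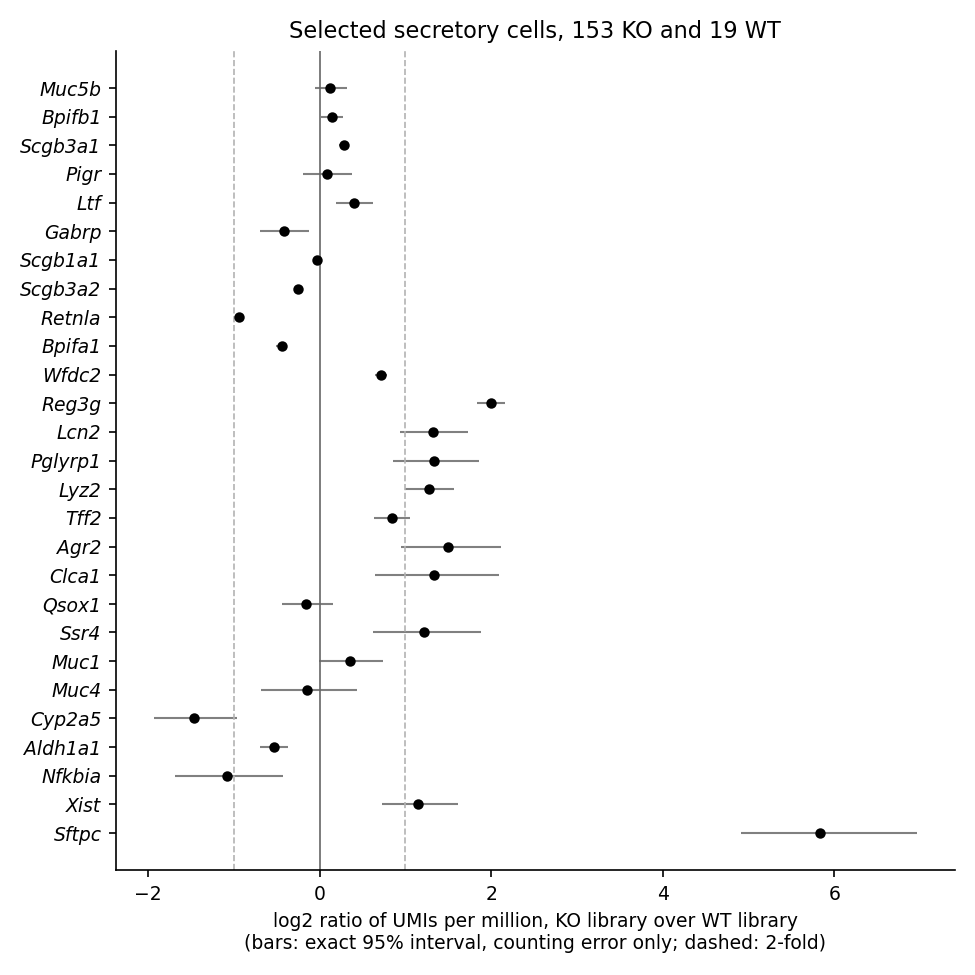
Log2 ratio of summed CPM, KO over WT members, for 27 genes, with exact 95% intervals for counting error only and dashed lines at 2-fold. The genes of the rule and the secretoglobins lie within 2-fold, Reg3g, Lcn2, Pglyrp1, Lyz2, Agr2, Clca1, Ssr4, Xist and Sftpc lie at or past 2-fold on the KO side, and Cyp2a5 and Nfkbia on the WT side.

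Few listed genes were 2-fold or more lower in KO. Cyp2a5, a cytochrome of club cells that acts on nicotine and coumarin, was at 190 CPM (139 to 252) in WT against 69.0 CPM (59.3 to 79.9) in KO, a log2 ratio of -1.46 (-1.93 to -0.96), and was detected in 5 WT and 30 KO members. In the members without Xist the ratio was 0.57. Nfkbia, the inhibitor of NF-kappaB, was at -1.08 (-1.69 to -0.43), and -1.55 in the members without Xist. Retnla, a secreted resistin-like protein chosen here after its values were seen, was among the most abundant secreted RNAs, at 29106 CPM (WT) and 15194 CPM (KO), a log2 ratio of -0.94 (-0.97 to -0.90), with 36.4% of the WT UMIs from 1 cell. The lowest ratios of all measured genes were those of Fam13a (-1.78), Vcl (-1.55), Cyp2a5, Me1, Ppm1l, Errfi1, Pof1b, Gpr39, Kalrn and Mcl1. Of the Fam13a UMIs in WT, 88.5% came from 1 cell, and in the cells with both Muc5b and Bpifb1 the ratio was 1.31. Of the Vcl UMIs in WT, 61.1% came from 1 cell. These low ratios thus rest on single WT cells for the leading genes. Immediate early genes, which also respond to tissue digestion, had a median of -0.07 over 15 measured genes, with Fos at -0.79 (-1.12 to -0.46) and Jun at -0.37 (-0.71 to -0.02). With both Muc5b and Bpifb1 required Fos was at -0.30 and Jun at 0.33, and without Xist they were at -0.99 and -1.06.

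The highest ratios in KO included genes of other cell types. Sftpc, the surfactant protein of AT2 cells, had 36.3 CPM (9 UMIs) in WT against 2071 CPM in KO, a log2 ratio of 5.83 (4.91 to 6.96), and its level was used by the rule as an upper limit. It was detected in 7 of 19 WT and 152 of 153 KO members. The ciliated gate, which should lack the gene, moved the same way, from 245 CPM to 2046 CPM, and the AT2 gate held 592 of the kept WT and 6816 of the kept KO cells. Among the 11 AT2 genes, 7 were measured and the median was 0.26, with Sftpa1 at 0.10 (-0.01 to 0.22) and Sftpb at -0.39 (-0.55 to -0.22). The part of free RNA in these values was not tested. Ager, a gene of alveolar type 1 cells, was at 24.2 CPM and 114 CPM, a log2 ratio of 2.23 that was -0.48 in the members without Xist and -0.11 in the cells with both Muc5b and Bpifb1, while the median of 7 measured alveolar type 1 genes was -0.17.

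Matrix genes were higher in KO under the rule as stated, and for several of them 1 cell gave a large part of the UMIs. All 6 measured of 12 mesenchymal genes were higher and 5 were past 2-fold, where 1112 of 2184 and 4.17% of all measured genes were. Their median was 1.79, the sums were 315 CPM (WT) and 1020 CPM (KO), and 6 of the 12 had no UMI in WT. With the rule on thinned cells Col3a1 was at -0.87, Gsn at -1.38, Bgn at -0.48 and Inmt at -1.29. Mgp kept its direction there, but the median of the list turned negative. Of the KO UMIs, 1 cell gave 75.4% for Eln, 43.0% for Mgp and 31.3% for Igfbp7. In the 17 WT and 104 KO members without UMIs of Col1a1, Col1a2, Col3a1, Eln and Dcn, chosen after this was seen, Mgp was at -1.05 and Reg3g still at 1.66. Eln, Igfbp7, S100g, Cd81, Npnt, Saa3, Ccnd2, Cdkn1a and Mfap4 completed the 10 highest ratios after Sftpc, each on 5 or fewer WT UMIs. Immune genes summed to 569 CPM and 1046 CPM and were led by Lyz2, with Fcer1g at 28.2 CPM (WT) and 3.07 CPM (KO). Endothelial genes summed to 137 CPM and 60.2 CPM, with none measured. Ciliated cell genes summed to 521 CPM and 257 CPM, led by Sec14l3, which club cells of the club gate also carried (271 CPM and 222 CPM).

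Of 16 genes of the Krt8 transitional state, an intermediate of alveolar repair, 9 were measured and all 9 were higher in KO, with a median of 0.63 and 3 past 2-fold, against 1112 of all 2184 measured genes higher and 4.17% past 2-fold. Cdkn1a, a cell cycle inhibitor induced by p53, had 20.2 CPM (5 UMIs) in WT against 106 CPM in KO, a log2 ratio of 2.40 (1.16 to 4.03), which was 0.42 in the members without Xist. Krt19 was at 331 CPM and 513 CPM, a ratio of 0.63 (0.31 to 0.97), and Krt8 itself at 0.04 (-0.30 to 0.39). The list's median was -0.14 in the members without Xist. Interferon-stimulated genes had a median of 0.41 over 5 measured genes, all higher as were 1112 of all 2184, with Ifitm3 at 0.41 (0.11 to 0.72), Isg15 at 1.41 (0.02 to 3.31) and Ifi27l2a at 1.72 (0.66 to 3.05). In the cells with both Muc5b and Bpifb1, Isg15 was at -0.06 and Ifi27l2a at 1.82. In the members without Xist, Isg15 was at 1.22, Ifi27l2a at 0.25, Ifitm3 at -0.10 and Bst2 at -0.37. Neither the 2-fold difference of Ifi27l2a nor the shared direction thus held in the members without Xist. Xist itself was at 190 CPM and 421 CPM, a log2 ratio of 1.15 (0.73 to 1.61), in the direction of the larger number of KO members with Xist. In the sums, fewer cells with a gene and less RNA per cell give the same value, and only the counts of cells given above separate them.

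Pclaf was barely present in the members of either genotype. It had 1 UMI in 1 of 19 WT members (4.04 CPM, 0.102 to 22.5) and 8 UMIs in 3 of 153 KO members (3.07 CPM, 1.32 to 6.04). Over all kept cells it was at 39.3 CPM in WT (38.1 to 40.6) and 5.19 CPM in KO (4.76 to 5.65), in the direction of the labels. Cell cycle genes were likewise low, with sums of 480 CPM and 492 CPM over 20 genes, of which H2afz, a histone variant also made outside division, was the most abundant at 234 CPM and 267 CPM.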

How the data were processed

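The authors deposited UMI count matrices, raw and not normalized, for 1 library per genotype. The submitters' processing notes and the paper's methods name Cell Ranger 3.1.0 and STAR on GRCm38, whereas the matrix headers name Cell Ranger 5.0.0. Gene positions are those of GENCODE M21 (GRCm38), matched by Ensembl identifier, and the promoter windows are those of RefSeq. No column was left unmapped.

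Members were found by the rule in Python 3.11.15, and UMIs were summed over the members of a library and divided by their total (CPM). The gates for club, ciliated and basal cells used fixed marker sets. Log2 ratios have exact 95% intervals conditional on the sum of the 2 Poisson counts. A count of 0 was set to a floor of 3 counts for the ratio, but not for its interval. Shares have the exact Clopper-Pearson interval. Both cover counting error only. With 1 library per genotype there was no test and no p-value. The shares of members and AT2 cells with Bpifa1, Reg3g or Scgb1a1 were compared after thinning to 2000 UMIs. All other shares and counts of cells were taken at each cell's own depth, unless thinning is stated. Scrublet in scanpy 1.11.5 called 8.75% of WT and 2.70% of KO cells doublets, below the 24.1% and 12.5% expected from the numbers of cells, and they were left in. The ratios and intervals were tested on simulated data.

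The members, gene lists and gates were chosen with earlier results of these data known. The genes named are those of the rule, the 4 most abundant of each list and its genes past 2-fold, the 10 highest and 10 lowest ratios, and the 10 leading genes over each gate, apart from an item that is not reported here. Further members of the lists and Retnla were named after their values were seen. The alternatives were other limits on cells, other forms of the rule, other denominators, TMM factors of edgeR 4.0.16, means over cells, thinning and other minimums of UMIs.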

Additional observations from a re-analysis of the deposited data

How the results depend on the processing

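The ratios were recomputed under 16 alternatives, of which 2, members without Xist and members without UMIs of 5 matrix genes, were chosen after seeing the data. Of 121 named genes with a ratio, 40 were past 2-fold. Of these, 23 kept their direction in every alternative that gave them a ratio, and 4 were past 2-fold in each such one. Xist had no ratio in the members without Xist, nor had Col3a1 and Eln in those without matrix genes. Of 1933 single ratios, 1658 stayed within their counting error, 244 moved further and 31 changed direction from a value past 2-fold. Of 311 list medians, 290 stayed within the typical counting error of their genes. Where a value moved, the cause was not tested.

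The number of members fell to 9 (WT) and 86 (KO) when both Muc5b and Bpifb1 were required, and to 96 in KO with the rule on cells thinned to 2000 UMIs. The number of genes 2-fold higher, 91, and 2-fold lower, 27, became 41 and 13 with both genes required, 36 and 75 with the rule on thinned cells, 45 and 75 without Xist, 150 and 11 with TMM factors, 23 and 4 for the same members thinned, 592 and 244 at 3 expected UMIs, and 19 and 2 at 30. Means of per-cell CPM gave 130 higher and 74 lower, and no upper limit on genes gave 127 and 25. Fewer genes were measured with both genes required (884), in the thinned members (252) and at 30 expected UMIs (570), and more at 3 (6113). TMM factors shifted every log2 ratio by 0.16.

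The median of the goblet and secretory program, 0.84 in the main setting, became -0.10 with the rule on thinned cells and 0.15 at 3 expected UMIs. That of the secretoglobins, whose counting error is small, became -0.21 with no upper limit on genes, 0.10 with both genes required, -0.01 with the rule on thinned cells, 0.05 without Xist, 0.02 with TMM factors, -0.02 for means of per-cell CPM, -0.00 for thinned members and -0.03 at 30 expected UMIs. With both genes required the antimicrobial median became 0.05 and that of the Krt8 transitional genes 0.08. With the rule on thinned cells the medians became -0.25 for immunoglobulin transport and MHC, 0.66 for AT2 genes and -0.11, reversed, for mesenchymal genes. Without Xist they became -0.25 for AT2 genes, -0.14 for Krt8 transitional genes and 0.24 for RNA quality markers, and the latter were at 0.20 without matrix genes, -0.11 without mitochondrial and ribosomal genes and 0.28 with TMM factors.

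The ratios past 2-fold that changed direction with the rule on thinned cells were those of Col3a1 (-0.87), Gsn (-1.38), Bgn (-0.48), Npnt (-0.10), Clca1 (-1.20), Isg15 (-0.32), Inmt (-1.29), Fam13a (0.84), Cd81 (-0.00), Mfap4 (-3.00) and Ifi27l2a (-0.10). For the same members thinned they were those of Col3a1 (-0.12), Bgn (-0.25), Sfn (-0.94), Isg15 (-0.47), Inmt (-0.47), Gp2 (-0.74), Cd81 (-0.32), Mfap4 (-0.06) and Ifi27l2a (-0.12). Without matrix genes they were those of Gsn (-0.03), Bgn (-0.46), Inmt (-0.46), Mgp (-1.05) and Mfap4 (-0.87). With both genes required they were those of Mcl1 (0.03), Isg15 (-0.06), Fam13a (1.31) and Ager (-0.11). Without Xist they were those of Cyp2a5 (0.57) and Ager (-0.48).

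The 19 WT cells set the precision, since a gene at 40.4 CPM in the pooled members has about 10 WT UMIs, and with 1 library per genotype no difference can be assigned to the genotype, sex, animal or run. No paired analysis was possible because each genotype has 1 library. No replicate could be left out.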
